A study of Homo sapiens with 8 samples.

Results

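The genes described are 33 genes of the G1/S transition and of DNA replication, measured on 8 expression arrays of Saos-2 cells. A probe set was taken for a member if the platform annotation gave it exactly 1 gene and that gene was 1 of the 33, which found 62 probe sets, with 14 members on a single probe set and 19 on several. The 33 members are among 19775 genes with a probe set of their own, and each is represented by its brightest probe set. The cells, Saos-2, are a cultured human osteosarcoma line that the labels call p53-null, and they were left untreated (3 arrays, replicates 1, 2 and 3) or treated with a compound labelled Prima for 6 h (3 arrays, replicates 1, 2 and 3) or for 12 h (2 arrays, replicates 1 and 3). The study asked how the compound affects the transcriptome of cells that lack p53. All 3 groups share the cell line and its p53-null state. The second 12 h replicate was not analysed here. The labels give neither a dose nor a vehicle for the untreated cells, and they do not say whether replicates were separate cultures, so the p-values cover the spread among arrays as deposited, part or all of which may be technical.

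In G1 the origin recognition complex, CDC6 and CDT1 load the ring of MCM2 to MCM7 onto replication origins, and at the start of S phase CDC45 and the GINS complex join that ring to form the active helicase. Cyclin E with its kinase and the E2F transcription factors drive this step, and many of the genes below are textbook E2F targets. In most cells RB holds E2F back and p53 can block cyclin E activity through p21; Saos-2 is known as a line without functional RB as well as without p53.

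Many of the members' promoters hold the letters of an E2F motif, and whether E2F control bore on the choice of members is not known. RefSeq promoter windows (GRCh38.p14, 250 bases before to 50 after each start) were found for 30 of the 33 members, in 39 windows; CCNE2, MCM4 and MCM5 are not in that table. Each window was searched on both strands for 4 E2F spellings, TTTCCCGC, TTTCGCGC, TTTGCCGC and TTTGGCGC. A match was present in 18 of the 30 members and in 48.7% of their windows, against 3.31% of all 35116 windows of the same length, and in 16 of these 18 members a match lay within 70 bases of a start. The CCAAT box (CCAAT) was present in 25 of the 39 windows (64.1%, against 34.6% of all windows), and the CHR spellings TTTGAA and TTCGAA in 3 of them (7.69%, against 16.4%). Motifs were counted separately, so matches of different motifs may share bases.

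The stretches below run from 120 bases before a start to 30 bases after it, 5′ to 3′ on the gene's strand, and capitals mark the E2F spelling or its reverse complement. They are shown because the members concerned hold the lowest and highest differences described below (GINS2, UHRF1, E2F2) or, among the licensing genes, the highest difference from 6 h to 12 h (CDT1). GINS2 lies at chr16:85688925-85689074 on the minus strand with the match 31 bases before the start, and CDT1 at chr16:88803669-88803818 on the plus strand with the match 35 bases before it. E2F2 lies at chr1:23531204-23531353 on the minus strand with the match 42 bases before the start. UHRF1 lies at chr19:4909381-4909530 on the plus strand with the match 14 bases before the start, and this is 1 of its 3 windows.
GINS2: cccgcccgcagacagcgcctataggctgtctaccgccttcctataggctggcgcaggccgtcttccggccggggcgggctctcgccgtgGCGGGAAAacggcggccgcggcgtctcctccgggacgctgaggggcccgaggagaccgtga
CDT1: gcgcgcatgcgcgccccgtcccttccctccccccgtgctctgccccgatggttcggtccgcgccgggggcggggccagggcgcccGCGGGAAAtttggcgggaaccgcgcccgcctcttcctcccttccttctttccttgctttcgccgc
E2F2: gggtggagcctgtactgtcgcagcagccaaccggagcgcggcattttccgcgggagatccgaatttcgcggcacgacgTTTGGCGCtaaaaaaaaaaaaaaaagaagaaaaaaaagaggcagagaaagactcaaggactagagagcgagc
UHRF1: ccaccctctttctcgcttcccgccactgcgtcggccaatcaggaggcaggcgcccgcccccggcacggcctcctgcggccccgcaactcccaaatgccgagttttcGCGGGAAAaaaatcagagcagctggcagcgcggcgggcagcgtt
In 3 of the 4 the match is the same spelling, GCGGGAAA as read on the gene's strand, and E2F2 has TTTGGCGC. A match is a description of these letters and not a binding site or a cause of any value below.

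Array quality touches every result below. The deposited MAS5 signals have a 2% trimmed mean of 100.01 on each array, but the median signal was 50.8 and 47.5 on the replicate 2 arrays (untreated and 6 h) and 14.2 to 24.9 on the other 6. The replicate 2 arrays had under 0.1% of signals at or below the floor of 2.39 used here, the replicate 3 arrays 19.0% to 20.8% and the replicate 1 arrays 6.27% to 7.88%. The ACTB 3′ to 5′ control ratio was highest on the 12 h replicate 1 array, at 2.29, and between 1.12 and 1.73 on the others. The GAPDH 3′ to 5′ ratio differed little, at 1.04 on that array and between 0.93 and 1.01 on the others. All 8 osteoblast-lineage markers with a probe set lay above the filter used for testing, with RUNX2 between 1411 and 2350 but SPP1 between 14.5 and 94.2. Of 9 markers of blood, epithelium and endothelium, 3 lay above it: EPCAM (26.0 to 244.6), PTPRC (0.47 to 80.6) and PECAM1 (13.7 to 142.9). None of the 9 was listed at 0, and their summed signal was 240 to 410 untreated, 273 to 579 at 6 h and 220 to 286 at 12 h. The upper ends untreated and at 6 h were the replicate 2 arrays. No 12 h replicate 2 array was analysed, so these ranges do not compare the groups on the same replicates. What these differences between arrays contribute to the results was not tested.

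No member passed the test in any of the 3 comparisons, and most members read lowest on a replicate 2 array. All 33 members passed the filter on low signals, as did 12063 of the 19775 genes. With limma, 0 of 33 members passed an adjusted p of 0.05 at 6 h against untreated (0% of all genes tested), 0 of 33 at 12 h against untreated (0%) and 0 of 33 at 12 h against 6 h (0%). The smallest adjusted p among members was 0.9999 in the comparisons with untreated cells. At an unadjusted p under 0.05, 1 member was found at 6 h against untreated (0.655% of all genes), 0 at 12 h against untreated (0.613%) and 0 at 12 h against 6 h (0.73%). The median SE of a member's log2 difference was 0.28 at 6 h. The comparisons share arrays with each other, the untreated arrays in the first pair and the treated ones with the last, so their values are given side by side and are not independent of one another.

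At 6 h, 13 of 33 members had a signal above untreated (53% of all genes tested did), and the median log2 difference over members was -0.08, against 0.02 over all genes. At 12 h, 29 of 33 were above untreated (59.9% of all genes) with a median of 0.19, against 0.08 over all genes. Between 6 h and 12 h, 30 of 33 were higher at 12 h (57.2% of all genes) with a median of 0.23, against 0.06.

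The 12 h values depended on the replicate 2 arrays, which have no 12 h partner in the data used. With the replicate number as a block, the counts were 23 of 33 with a median of 0.06 at 12 h against untreated (0.04 over all genes) and 26 of 33 with a median of 0.11 at 12 h against 6 h. The difference at 12 h against untreated turned negative with the block for CDC6 (-0.16), GINS2 (-0.16), MCM10 (-0.23), PCNA (-0.09), RFC3 (-0.06) and CCNE2 (-0.13). Without the untreated replicate 2 array, 16 of 33 members were above untreated at 12 h, and the median was -0.01. At 6 h the median was -0.22 without that array, and it took the opposite sign without untreated replicate 1 (0.04), untreated replicate 3 (0.02) or 6 h replicate 2 (0.04). Between 6 h and 12 h it was 0.15 without the 6 h replicate 2 array and 0.36 without the 6 h replicate 3 array.

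**Figure D1:**
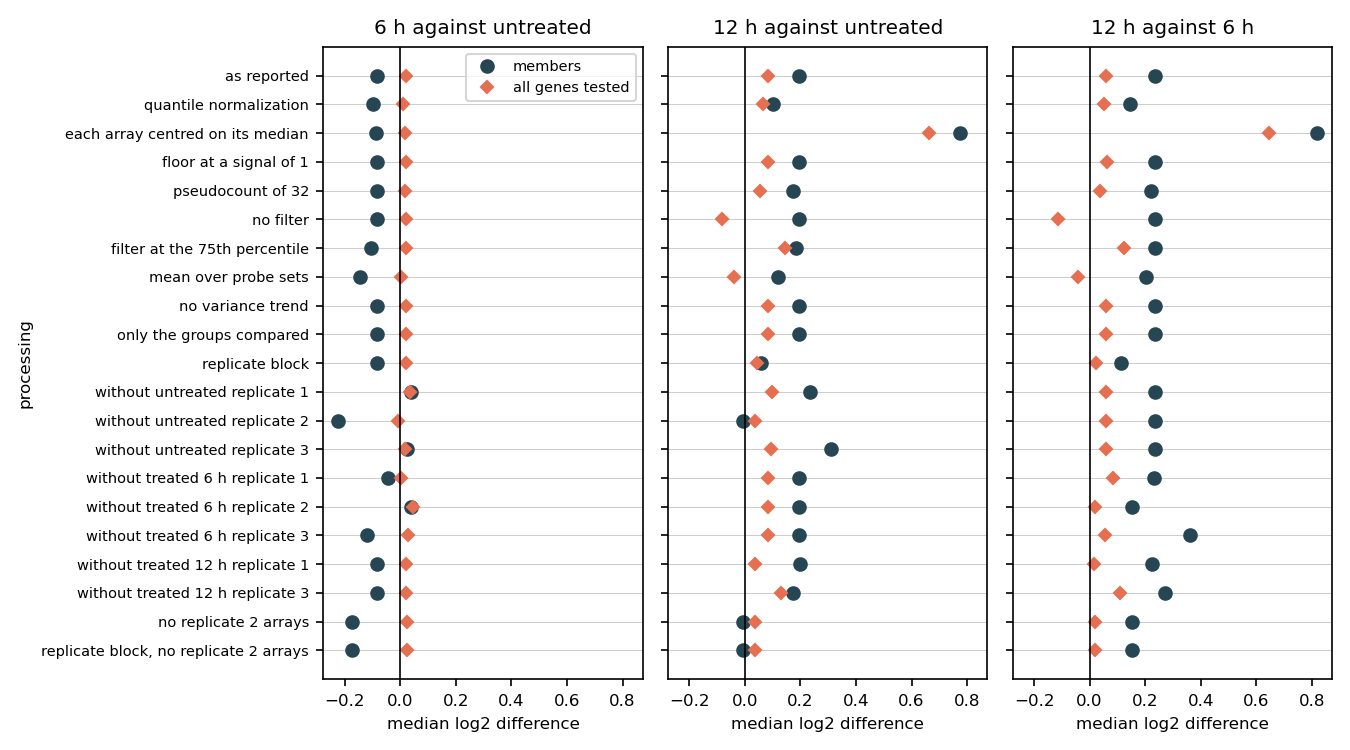
Median log2 difference (x axis) of members (circles) and of all genes tested (diamonds) in each comparison, as reported and under each other way of processing (y axis). At 12 h against untreated the members' median is 0.19 as reported and -0.01 without untreated replicate 2, and centring each array on its median moves members and all genes together, to 0.78 and 0.66.

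**Figure D2:**
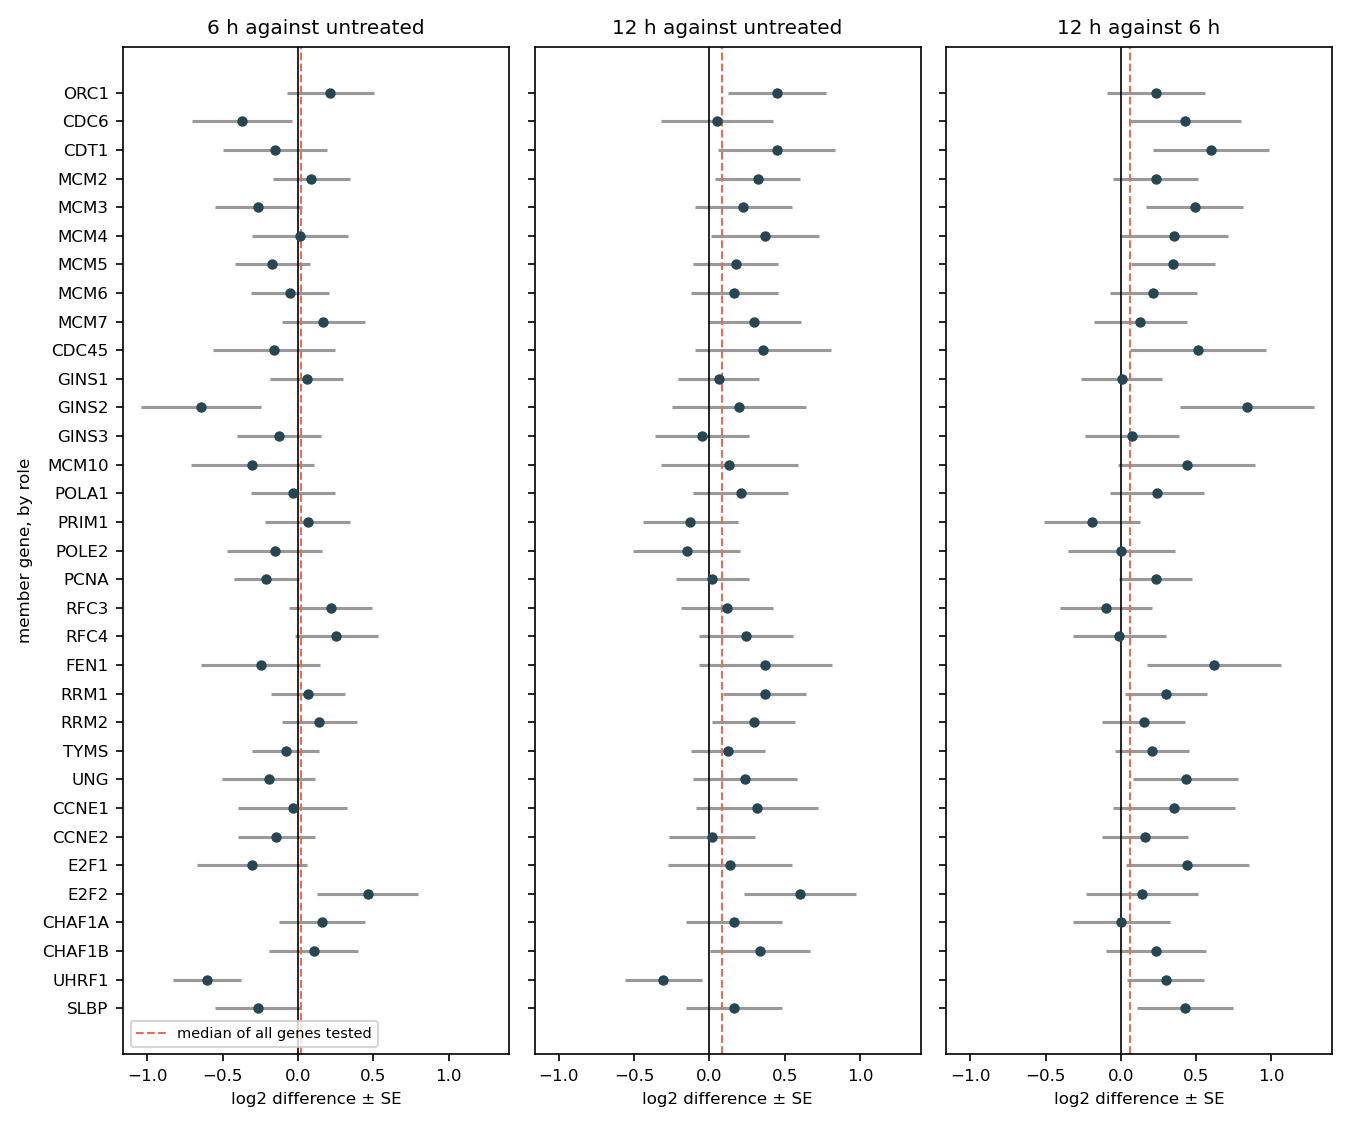
Log2 difference with its SE for the 33 members in each of the 3 comparisons (x axis, log2 units; genes on the y axis ordered by role), with the median of all genes tested as a dashed line. Members lie on both sides of 0 at 6 h (13 above) and mostly to the right in the comparisons with 12 h (29 and 30 above), and most error bars reach 0.

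The licensing genes ORC1, CDC6 and CDT1 had positive group differences at 12 h against both other groups, and at 6 h only ORC1 did; for CDC6 the sign at 12 h against untreated turned within pairs. ORC1, the ATPase subunit of the origin recognition complex that falls away after G1, read 177.4, 170.7 and 280.1 on untreated replicates 1, 2 and 3, then 280.4, 179.9 and 262.9 at 6 h and 289.1 and 268.3 at 12 h (replicates 1 and 3). Untreated replicate 3 was as high as the treated arrays, so the groups overlapped. The log2 difference was 0.21 ± 0.29 (SE) at 6 h and 0.45 ± 0.33 at 12 h; within pairs the 12 h difference was 0.70 for replicate 1 and -0.06 for replicate 3.

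CDC6, the loader that brings MCM rings to the origin, read 430.6, 305.9 and 531.9 untreated, 262.1, 240.9 and 509.2 at 6 h and 355.3 and 513.1 at 12 h. Its 6 h array was below its untreated partner in each of the 3 pairs, although the groups overlapped, and the difference was -0.37 ± 0.33 at 6 h and 0.05 ± 0.37 at 12 h. Within pairs CDC6 was below untreated at 12 h as well, by -0.28 and -0.05, and with the replicate block its 12 h value was -0.16. CDT1, which acts with CDC6 and is destroyed in S phase, read 694.7, 263.0 and 452.9 untreated, 365.4, 440.6 and 374.3 at 6 h and 802.4 and 438.8 at 12 h. Untreated replicate 2 was the lowest of its 8 arrays and 12 h replicate 1 the highest. Its difference was -0.15 ± 0.35 at 6 h, 0.45 ± 0.39 at 12 h and 0.60 ± 0.39 from 6 h to 12 h. Pair by pair, the 6 h difference of CDT1 was -0.93, 0.74 and -0.27. The CDT1 probe set is of a class that can bind related transcripts, and the gene's other tested probe set gave 0.22 at 6 h and 0.37 at 12 h.

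The 6 subunits of the MCM ring, the core of the replicative helicase, were all above 0 at 12 h, from 0.16 (MCM6) to 0.37 (MCM4), and they were split 3 to 3 at 6 h, from -0.26 (MCM3) to 0.17 (MCM7). With the replicate block the 12 h values were smaller, from 0.01 (MCM6) to 0.19 (MCM2), with MCM4 at 0.10. Of the 6, 3 (MCM2, MCM5 and MCM7) were above untreated in both 12 h pairs, as were 34% of all genes tested. MCM3 read 743.3, 627.0 and 913.2 untreated, 437.9, 596.2 and 941.0 at 6 h and 848.0 and 911.2 at 12 h. The 6 h replicate 1 array was the lowest of the 8, the other 6 h arrays were close to their untreated partners, and the difference from 6 h to 12 h was 0.49 ± 0.32. That difference came to 0.95 in pair 1 and -0.05 in pair 3.

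MCM4 read 874.2, 346.7 and 687.2 untreated, 636.0, 482.2 and 695.9 at 6 h and 825.4 and 708.0 at 12 h. Both replicate 2 arrays were its lowest, and the 12 h arrays lay above every 6 h array (0.36 ± 0.36) but inside the untreated range. Its 3 other probe sets that passed the filter gave 12 h differences of 0.14, -0.18 and -0.67. MCM6, the brightest of the 6 probe sets, read 1691.5, 980.6 and 1402.7 untreated, 1385.3, 1130.0 and 1334.7 at 6 h and 1806.5 and 1221.4 at 12 h, with overlapping groups and a 12 h difference of 0.16 ± 0.29; its other tested probe set, dim at 13.0 to 63.9, gave -0.94 ± 0.79. MCM5 was 1 of 3 members whose 12 h arrays (707.2 and 770.2) lay above every untreated array (605.7, 659.3 and 702.5). Its other tested probe set gave 0.50 at 12 h and 0.25 at 6 h, where the brightest gave -0.17. MCM2 and MCM7 had 12 h differences of 0.32 ± 0.28 and 0.30 ± 0.31.

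Among the genes that turn the loaded ring into a moving helicase, GINS2 had the lowest 6 h value of all 33 members. GINS2, a subunit of the 4-protein GINS complex, read 390.5, 212.9 and 430.7 untreated, 193.4, 122.8 and 393.1 at 6 h and 400.4 and 355.0 at 12 h. Each 6 h array was below its untreated partner, by -1.01, -0.79 and -0.13 log2 units, but untreated replicate 2 lay inside the 6 h range. The difference was -0.65 ± 0.40 at 6 h (limma, unadjusted p = 0.13, adjusted p = 0.9999), 0.19 ± 0.44 at 12 h and 0.84 ± 0.44 from 6 h to 12 h. The last of these was 1.05 in pair 1 and -0.15 in pair 3. A second, dim GINS2 probe set (11.6 to 37.7) gave 0.29 ± 0.74 at 6 h.

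CDC45, the third component of the active helicase, read 142.3, 114.6 and 182.1 untreated, 72.4, 119.3 and 247.9 at 6 h and 160.3 and 210.3 at 12 h. The 6 h group held both its lowest and its highest array, and the difference was -0.16 ± 0.40 at 6 h and 0.51 ± 0.45 from 6 h to 12 h. MCM10, which assists helicase activation, read 281.8, 216.5 and 347.3 untreated, 325.6, 103.8 and 333.1 at 6 h and 264.8 and 347.2 at 12 h. Its low 6 h value rests on replicate 2 alone, and its 2 other tested probe sets gave 6 h differences of 0.26 and 0.27, of opposite sign to the -0.30 of the brightest. GINS1 read 1081.8, 839.1 and 890.0 untreated, 1200.0, 971.9 and 777.8 at 6 h and 1090.0 and 866.9 at 12 h. Its groups overlapped and its differences were 0.06 at both times. GINS3 stood at -0.13 at 6 h and -0.05 at 12 h, and its other tested probe set gave -0.15 and 0.25.

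The polymerase and primase genes held group differences of at most 0.24 log2 units in size, without the replicate block. With the block the values at 12 h against untreated were larger, -0.30 for PRIM1, -0.34 for POLE2 and 0.27 for POLA1. PRIM1, the catalytic primase subunit, read 476.8, 326.4 and 592.3 untreated, 521.4, 402.9 and 501.1 at 6 h and 337.9 and 505.8 at 12 h. Its 12 h arrays were below their partners in both pairs, yet inside the untreated range, and the difference was -0.13 ± 0.32. POLA1, the catalytic subunit of polymerase alpha, gave 0.21 ± 0.31 at 12 h, and POLE2, an accessory subunit of polymerase epsilon, gave -0.16 ± 0.32 at 6 h and -0.15 ± 0.35 at 12 h.

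PCNA, the sliding clamp, read 2088.2, 1794.0 and 2258.2 untreated, 1824.5, 1480.9 and 2015.9 at 6 h and 2097.4 and 2034.6 at 12 h. All 3 of its 6 h arrays were below their partners, by a narrow -0.16 to -0.28 log2 units. The group difference was -0.21 ± 0.22 at 6 h and 0.02 ± 0.24 at 12 h, and the 12 h arrays lay above every 6 h array (0.23 ± 0.24). FEN1, the nuclease that trims Okazaki fragment flaps, read 829.5, 758.4 and 1605.8 untreated, 980.2, 443.1 and 1391.1 at 6 h and 1097.0 and 1534.4 at 12 h. Replicate 3 arrays were its highest at every time, and replicate 2 arrays its lowest. The FEN1 differences were -0.25 ± 0.40 at 6 h and 0.37 ± 0.44 at 12 h, but its other tested probe set gave -0.29 and 0.00. The clamp loader subunits RFC3 and RFC4 stood at 0.22 and 0.25 at 6 h and at 0.12 and 0.24 at 12 h. The other tested RFC3 probe set gave 0.01 at 6 h and -0.26 at 12 h.

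**Figure D3:**
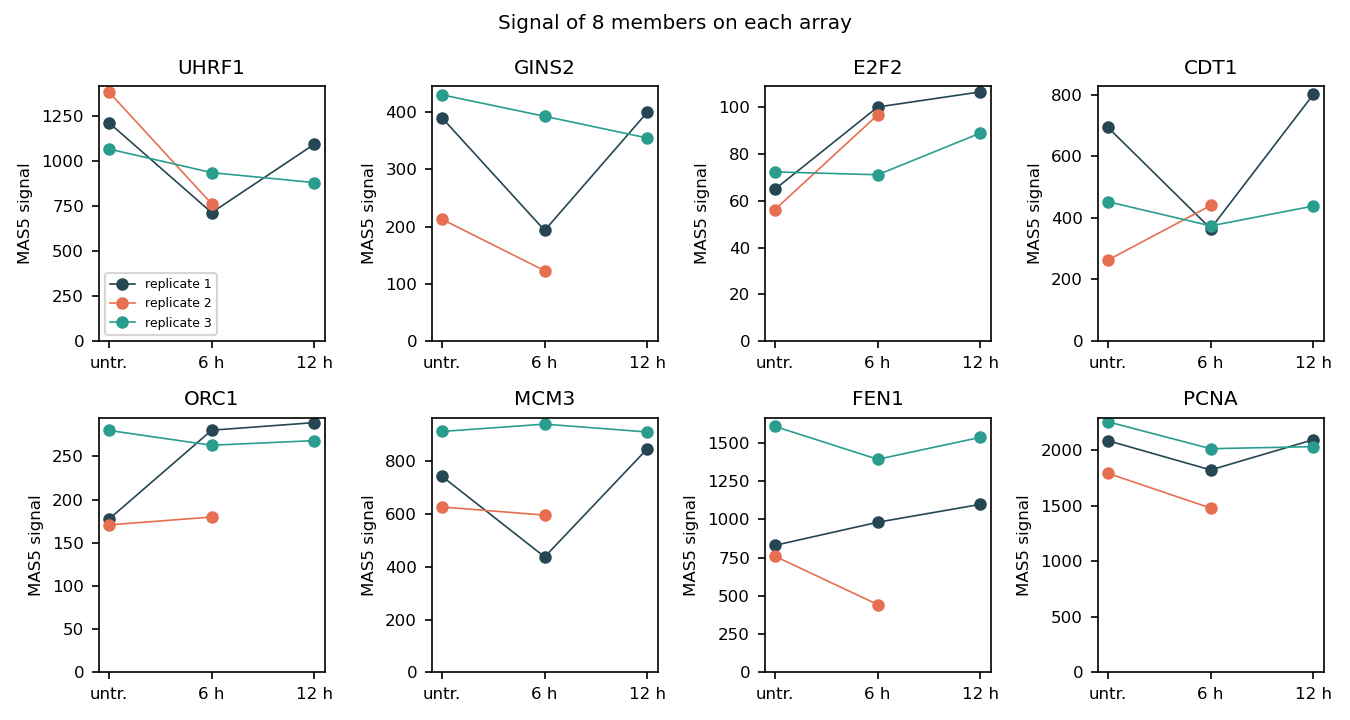
MAS5 signal (y axis, linear, from 0) of 8 members on each array by group (x axis), with points of the same replicate number joined. UHRF1 is lower on all 3 arrays at 6 h, GINS2 and PCNA are lower within each pair, and in FEN1 the replicate 3 arrays are highest in every group.

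Of the genes of nucleotide supply, RRM1 and RRM2, the subunits of ribonucleotide reductase, were positive at both times. RRM1 read 1951.6, 1487.3 and 2314.3 untreated, 2363.0, 1516.2 and 2155.0 at 6 h and 2520.9 and 2348.9 at 12 h. Its 12 h arrays lay above every untreated array, though by only 0.02 log2 units within pair 3, and the difference was 0.37 ± 0.27; its other tested probe set gave -0.09. RRM2 read 2595.2, 1745.2 and 2943.2 untreated, 2686.9, 2125.5 and 3129.7 at 6 h and 2762.9 and 3052.7 at 12 h. It was the 1 member above untreated in all 3 pairs at 6 h (0.05, 0.28 and 0.09), with group differences of 0.14 ± 0.25 at 6 h and 0.29 ± 0.28 at 12 h. TYMS, thymidylate synthase, gave -0.08 ± 0.22 at 6 h and 0.12 ± 0.25 at 12 h, with its 12 h arrays (2451.2 and 2544.8) above every 6 h array (1990.4, 2105.8 and 2416.8). UNG, which removes uracil from DNA, gave -0.20 ± 0.31 at 6 h and 0.23 ± 0.35 at 12 h.

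The activator E2F2 had the highest difference of all members at both times, while E2F1 had values of both signs. E2F2 read 65.0, 56.3 and 72.4 untreated, 100.2, 96.8 and 71.2 at 6 h and 106.7 and 89.0 at 12 h. Both 12 h arrays lay above every untreated array, as did 2 of the 3 arrays at 6 h. The difference was 0.46 ± 0.33 at 6 h and 0.60 ± 0.37 at 12 h (limma, unadjusted p = 0.13, adjusted p = 0.9999), with 0.72 in pair 1 and 0.30 in pair 3. Its 2 other probe sets are dim (1.56 to 42.6) and fell under the filter, and averaging all 3 turned the values to -0.28 at 6 h and -0.67 at 12 h.

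E2F1 read 97.8, 123.3 and 91.0 untreated, 68.2, 83.0 and 102.5 at 6 h and 169.9 and 75.6 at 12 h. Its 12 h arrays were the highest and the second lowest of the 8, and the 12 h difference was 0.80 in pair 1 and -0.27 in pair 3 (0.14 ± 0.41 over groups). The other tested E2F1 probe set gave -0.12 at 6 h and -0.29 at 12 h. Cyclin E1 (CCNE1), the G1/S cyclin, showed the same split between pairs, 0.93 in pair 1 and -0.28 in pair 3. Cyclin E2 (CCNE2) read 1027.2, 567.5 and 849.5 untreated, 744.1, 658.8 and 748.0 at 6 h and 867.5 and 738.2 at 12 h. All treated CCNE2 arrays lay inside the untreated range, and its differences were -0.14 ± 0.26 and 0.02 ± 0.29.

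UHRF1 was the 1 member whose treated and untreated arrays did not overlap at 6 h. UHRF1, which reads hemimethylated DNA behind the fork and brings in the maintenance methyltransferase, read 1213.9, 1384.5 and 1067.7 untreated, 713.6, 762.7 and 936.2 at 6 h and 1094.8 and 880.5 at 12 h. The mean signal was 1222 ± 159 (SD, n = 3) untreated, 804 ± 117 (n = 3) at 6 h and 988 ± 151 (n = 2) at 12 h. The 6 h difference was -0.61 ± 0.23 log2 units, or 1.52-fold lower (limma, unadjusted p = 0.0198, adjusted p = 0.9999), and with the replicate block its adjusted p was 0.831. Within pairs it was -0.77, -0.86 and -0.19. Non-overlap in the lower direction was found for 1 of 33 members at 6 h, against 1.51% of all genes tested, and in the higher direction for 0 of 33, against 2.03%. At 12 h the UHRF1 groups overlapped and the difference was -0.31 ± 0.25. UHRF1 is measured by a single probe set.

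SLBP, the protein that binds the stem-loop of histone mRNAs, read 1299.7, 643.1 and 1026.7 untreated, 606.2, 874.6 and 928.1 at 6 h and 1092.9 and 1032.2 at 12 h. Its within-pair 6 h differences ran from -1.10 in pair 1 to 0.44 in pair 2, and its 12 h arrays lay above every 6 h array (0.43 ± 0.32). CHAF1A and CHAF1B, subunits of the chromatin assembly factor that places histones behind the fork, gave 0.16 ± 0.29 and 0.10 ± 0.30 at 6 h and 0.16 ± 0.32 and 0.34 ± 0.33 at 12 h. The CHAF1A probe set is of the same class as that of CDT1, which can bind related transcripts, and its 2 other tested probe sets gave -0.32 and 0.43 at 6 h and -0.12 and 1.57 at 12 h.

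The groups of arrays separated for few members. At 12 h against untreated, 3 of 33 members (MCM5, RRM1 and E2F2) were higher with no overlap, against 9.6% of all genes, and 0 of 33 were lower, against 4.89%. At 12 h against 6 h, 4 of 33 (TYMS, PCNA, MCM4 and SLBP) were higher with no overlap, against 7.1% of all genes, and 0 of 33 were lower, against 4.5%. The first of these shares is close to the background. The others rest on few genes, and whether they differ from the background was not tested.

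Arrays with the same replicate number were compared as pairs, although for replicate 1 their deviations from the group means correlated at only 0.11 to 0.16. At 6 h, 1 of 33 members (RRM2) was higher in all 3 pairs, against 13.6% of all genes, and 5 of 33 (GINS2, UHRF1, CDC6, PCNA and POLE2) were lower in all 3, against 10.4%. At 12 h against untreated, 9 of 33 were higher in both pairs, against 34% of all genes, and 8 of 33 were lower in both, against 25%. At 12 h against 6 h, 14 of 33 were higher in both pairs, against 26%, and 2 of 33 (MCM7 and RFC4) were lower in both, against 23.6%.

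The pairs differed from each other in the size and the sign of the members' median. At 6 h it was -0.24 in pair 1, 0.08 in pair 2 and -0.08 in pair 3, against 0.04, 0.03 and 0.01 over all genes. At 12 h against untreated it was 0.09 in pair 1 and -0.04 in pair 3. From 6 h to 12 h the median was 0.20 in pair 1, with 26 of 33 members higher and E2F1 at 1.32, and 0.01 in pair 3, with 19 of 33 higher and no member beyond -0.44 or 0.32. The larger difference from 6 h to 12 h was thus in replicate 1. The 12 h array of that replicate has the highest ACTB 3′ to 5′ ratio (2.29). Its GAPDH ratio was 1.04, against 0.93 to 1.01 on the other arrays. The part of RNA quality in this difference was not tested.

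**Figure D4:**
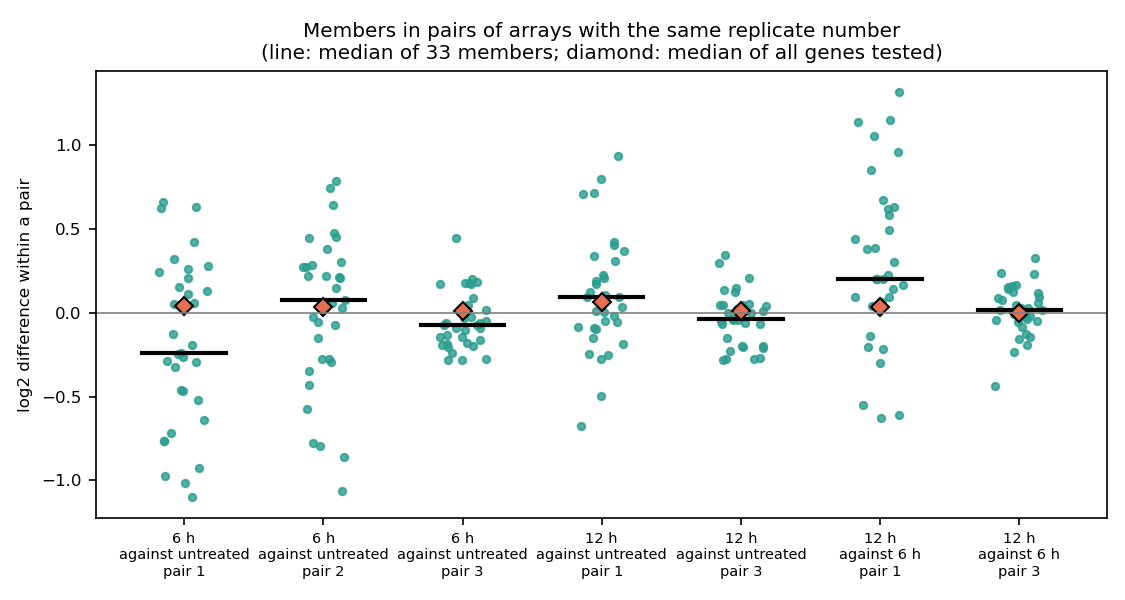
Log2 difference of each of the 33 members (points, y axis) within the 7 pairs of arrays that share a replicate number (x axis), with the median of members as a line and the median of all genes tested as a diamond. Points spread widely in pairs 1 and 2 and narrowly in pair 3, and the medians of members run from -0.24 to 0.20.

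Across the 8 arrays the members shared a pattern that followed replicate 2. Relative to each gene's own 8-array mean, 30 of 33 members were low on the untreated replicate 2 array (median -0.36 log2 units, against -0.08 over all genes) and 28 of 33 on the 6 h replicate 2 array (median -0.29, against -0.06). Untreated replicate 2 was the lowest of the 8 arrays for 14 members and 6 h replicate 2 for 10. On the replicate 3 arrays the medians were 0.17 untreated, 0.13 at 6 h and 0.17 at 12 h. These are the arrays with the highest and the lowest median signal, and the part of that difference in the members' pattern was not tested.

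**Figure D5:**
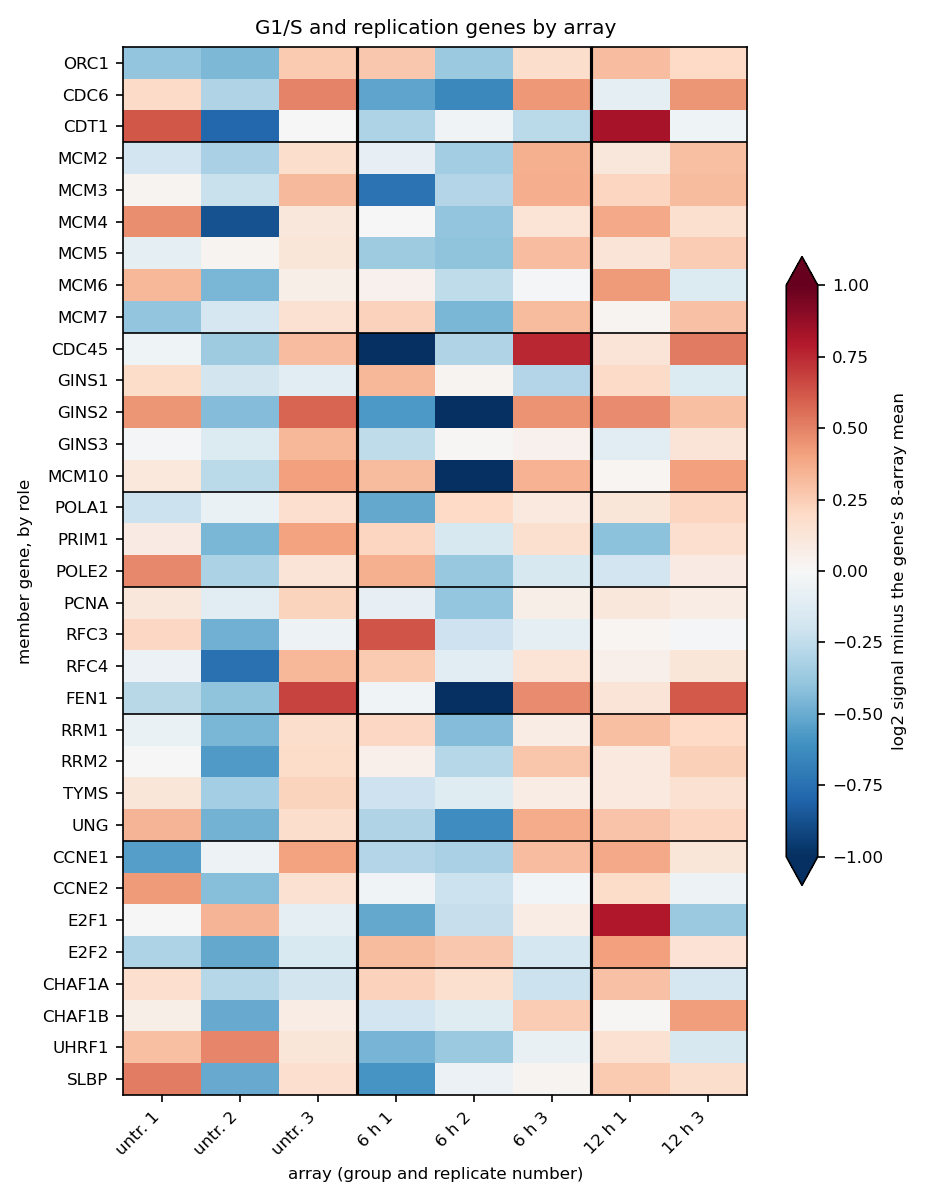
Log2 signal of each member minus its own mean over the 8 arrays (colour, saturated beyond 1 log2 unit), with genes ordered by role on the y axis and arrays by group on the x axis. Both replicate 2 columns are low for most genes (30 and 28 of 33 members below their mean). Among the exceptions, UHRF1, E2F1 and MCM5 are above their mean in the untreated replicate 2 column only. GINS1, CHAF1A, E2F2 and POLA1 are above it in the 6 h replicate 2 column and not in the untreated one.

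As a description over these 8 arrays, which share 3 replicate numbers, the mean Pearson r of log2 signal between members was 0.35, against 0.18 for the other replication genes and 0.01 for all genes tested. Without the replicate 2 arrays (6 arrays) it was 0.10 for members and 0.01 for all genes. RRM2 and UNG (0.92) and TYMS (0.90) followed the median of the other members most closely, and UHRF1 (-0.06), GINS1 (-0.02), E2F1 (0.01) and CHAF1A (0.01) least. The most alike pairs of members were CDC45 with MCM3 (0.97) and GINS2 with PCNA (0.97).

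The E2F spelling did not divide the members into groups with separate values. At 6 h, 5 of the 18 members with a spelling in their promoter window were above 0 (median -0.14), and 7 of the 12 members without one (median 0.07). At 12 h the counts were 15 of 18 (median 0.15) and 11 of 12 (median 0.31). The ranges overlapped at 6 h, -0.65 to 0.46 with a spelling and -0.30 to 0.25 without.

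Of 57 other replication and G1/S genes with a probe set, such as ORC2 to ORC6, the polymerase delta subunits, RPA, TK1 and DNMT1, all passed the filter and 0 passed an adjusted p of 0.05 in any comparison. At 6 h 28 of them were above untreated (median -0.01), at 12 h 42 (median 0.14), and 41 were higher at 12 h than at 6 h (median 0.14). With the replicate block the 12 h counts were 31 (median 0.03) and 31 (median 0.02).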

How the data were processed

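RNA of 8 samples was measured on Affymetrix 3′ arrays, 1 array per sample, and the deposited values are linear probe-set intensity. The authors used MAS5, according to the submitters' processing notes, in a version not given in the sources used here. This method scales each array to a common level, and the number of arrays limits the precision.

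The members, the gene lists and the tests were chosen with earlier results of these data known. Of 54675 probe sets, 62 controls were left out; the platform annotation gave 1 symbol for 41091, several for 1801, and did not name 11721. A gene was represented by its brightest probe set with 1 symbol. Signals under the 10th percentile (2.39) were set to it before log2, and genes with a mean log2 signal above the median of all probe sets (4.22) were tested. Because of the floor, differences of dim genes are understated. Signals of different probe sets were compared only in brightness, as in choosing the brightest or naming dim ones, and were added in the summed marker signal. No log2 difference was taken between probe sets.

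Differences were fitted in R 4.3.3 with limma 3.58.1 (lmFit, eBayes with a variance trend, the 3 groups in 1 fit), with two-sided p-values adjusted by Benjamini-Hochberg over 12063 genes. The procedure was tested on simulated data. Values on each array are given for members among the 6 largest differences of any comparison and the brightest member of each role; MCM5, SLBP and TYMS were added after their values were seen, as were the single members named beside counts. Alternatives covered normalization, floor, pseudocount, filter, probe-set choice, the replicate block and leaving out arrays.

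Replicate numbers were taken to pair the arrays: deviations from the group means of arrays with the same number correlated at 0.11 to 0.64 in all 7 pairs, and of arrays with different numbers at -0.58 to 0.33. For replicate 1 the values were 0.11 to 0.16, within the range of different numbers. Deviations cancel out within a group, which by itself lowers the r of different numbers. These values therefore do not settle whether replicate 1 arrays are paired.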

Additional observations from a re-analysis of the deposited data

How the results depend on the processing

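With 2 or 3 arrays a group, no alternative called a member or any other gene, and the smallest adjusted p of a member was 0.751 at 6 h, 0.794 at 12 h and 0.815 for 12 h against 6 h. Centring each array on its median raised the median of members to 0.78 at 12 h against untreated and 0.82 at 12 h against 6 h. It raised all genes by 0.58 and 0.59. This step shifts every gene alike, so the members' distance from all genes, 0.11 and 0.17, could not change. Under other alternatives that distance moved, to 0.01 and 0.09 with the replicate block and to 0.28 and 0.35 without a filter. At 12 h against untreated it was -0.04 without untreated replicate 2. Without a filter all genes shifted by -0.17 in both of these comparisons, and with the mean over probe sets by -0.12 and -0.10. In the paired fit (replicate block) the median was -0.08 at 6 h, 0.06 at 12 h and 0.11 for 12 h against 6 h, and no call changed. Leaving out 1 array at a time gave -0.22 to 0.04 at 6 h, -0.01 to 0.31 at 12 h and 0.15 to 0.36 for 12 h against 6 h. Of the 658 member values per comparison under the alternatives, 54 changed sign at 6 h, 78 at 12 h and 44 for 12 h against 6 h. The sign was kept under all of them by 10, 13 and 17 of 33 members. Some alternatives, such as those of the filter, the variance trend or an array of the third group, cannot change a log2 difference. The share of sign changes is therefore understated. Further probe sets taken singly are not among the 658 values. Some of them reversed the sign of a member counted here as keeping it, such as RRM1 at 12 h. UHRF1 ranged from -0.72 to -0.48 at 6 h and GINS2 from -1.10 to -0.26, except for its dim second probe set (0.29).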

Other observations

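Of the members, 17 have further probe sets that passed the filter, 21 in all. These repeated the pattern of the brightest ones only in part. Their difference had the sign of the brightest probe set in 12 of 21 at 6 h, 10 of 21 at 12 h and 14 of 21 for 12 h against 6 h. By pair, the medians of further and brightest probe sets shared a sign only in pair 1 at 6 h against untreated (-0.32 and -0.27). Within pair 1, where the brightest probe sets of these 17 genes were mostly higher at 12 h than at 6 h (14 of 17, median 0.22), 9 of the 21 further probe sets were (median -0.09). As an example chosen after the values were seen, the second probe set of CCNE2 read 302.4 untreated and 61.2 at 12 h in replicate 1, but 408.6 and 400.5 in replicate 3. Its brightest probe set read 1027.2 and 867.5 on the same replicate 1 arrays.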
